A study of Arabidopsis thaliana with 6 samples.

Results

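Extensins, leucine-rich repeat extensins (LRX) and proline-rich proteins (PRP) of the root hair wall were examined in Arabidopsis seedlings given an auxin-like synthetic compound. The group was fixed by gene identity and held 10 genes: 6 extensin-like genes (AT5G06630, AT5G06640, AT4G13390, AT5G35190, AT4G08410 and AT2G24980), LRX1 (AT1G12040), LRX2 (AT1G62440), PRP1 (AT1G54970) and PRP3 (AT3G62680). Only 2 of the 10, the extensin-like genes AT5G06630 and AT4G08410, had a probe set that the annotation assigns to that gene alone. The other 8, which include both LRX and both PRP genes, had none in the annotation used and were not analysed here. That annotation names a single gene for the probe sets of 13286 genes and leaves 8730 of 22746 probe sets unnamed, so probe sets for the 8 may be among those.

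Extensins are secreted rod-like glycoproteins of the plant cell wall, built from repeats of serine followed by prolines that are hydroxylated and then glycosylated, with tyrosines through which the rods are cross-linked into a network. LRX proteins join a leucine-rich repeat domain, which binds small RALF peptides, to an extensin domain anchored in the wall, and LRX1 and LRX2 act together in the growth of root hairs. PRP1 and PRP3 are expressed in root hairs, the tubular outgrowths of root epidermal cells, whose walls extend at the tip under a network of such proteins.

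The study measured transcripts in whole seedlings of the ecotype Columbia 0 with Affymetrix ATH1 arrays. The compound group (3 arrays) received 5 µM of an amide of 2-(2,4-dichlorophenoxy)propanoic acid, added from a stock in dimethyl sulfoxide (DMSO). The DMSO group (3 arrays) received the solvent alone. All seedlings were 7 days old at the addition, RNA was taken 24 h later, and the material of 24 wells, with 5 seeds put in each well, was combined for each array. The titles call the arrays biological replicates and number them 1 to 3 in each group. Values are on the log2 scale after robust multi-array averaging (RMA), and the array medians lay between 5.75 and 5.79. The root gene PYK10 averaged 12.73 with the compound and 12.82 with DMSO. LHCB4.1, a light-harvesting gene of green tissue, stood between 13.30 and 13.47 with the compound and between 13.34 and 13.46 with DMSO. Transcripts of both root and shoot were therefore present on all 6 arrays.

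AT5G06630 and AT4G08410 both fell with the compound. AT5G06630 had values of 5.80, 6.06 and 5.93 in compound replicates 1, 2 and 3, against 7.18, 7.53 and 7.72 in DMSO replicates 1, 2 and 3. The 3 compound arrays lay below all DMSO arrays, with a gap of more than 1 log2 unit between the groups. AT5G06630 averaged 5.93 ± 0.13 with the compound and 7.48 ± 0.28 with DMSO (SD, n = 3 each). The fitted log2 fold change was -1.55 (SE 0.16, limma adjusted p = 0.0220), which is 2.93-fold lower, with a 95% interval from 2.25-fold to 3.80-fold lower. With the replicate number as a block the SE was 0.10 and limma's adjusted p was 0.000720.

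AT4G08410 had values of 5.97, 5.81 and 5.52 in compound replicates 1, 2 and 3, against 6.94, 6.98 and 6.95 in DMSO replicates 1, 2 and 3. The groups did not overlap, the DMSO arrays were nearly equal, and compound replicate 3 was the lowest array. AT4G08410 averaged 5.77 ± 0.23 with the compound and 6.96 ± 0.02 with DMSO (SD, n = 3 each). The fitted log2 fold change was -1.19 (SE 0.13, limma adjusted p = 0.0254), which is 2.28-fold lower, with a 95% interval from 1.85-fold to 2.82-fold lower. With the replicate number as a block the SE was 0.10 and limma's adjusted p was 0.00184. In a bulk sample, fewer root hair cells and less of a transcript per cell cannot be told apart.

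**Figure D1:**
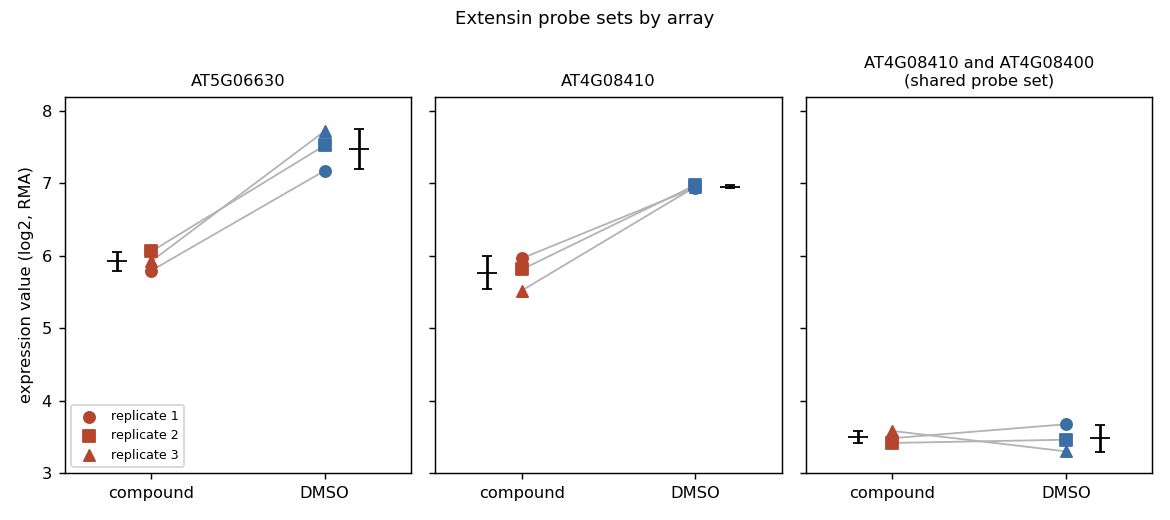
Expression value (log2, RMA) of the 2 single-gene probe sets and of the probe set shared by AT4G08410 and AT4G08400, by array. Symbols mark the replicate number, grey lines join arrays of the same number, and bars beside the points give the mean and SD of each group (n = 3). AT5G06630 and AT4G08410 lie lower on all 3 compound arrays, while the shared probe set stays between 3.30 and 3.67 in both groups.

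Both of the 2 measured genes passed the test, where 0.224% of all 22746 probe sets tested passed it in this direction, and 1.97% did so with the replicate block. Both also had all 3 compound arrays below all 3 DMSO arrays, as did 4.37% of the probe sets. Their median log2 fold change was -1.37, beside 0.01 over all probe sets. The 10 genes were chosen with earlier results of these data known, so these counts are no independent evidence. AT5G06630 took place 53 and AT4G08410 place 81 among all probe sets ordered from the largest fall. No value of the other 8 genes was read. The calls without the block were mostly lost when 1 array was left out. AT5G06630 was still called without DMSO replicate 1 (limma adjusted p = 0.0130) but not without any other 1 array, and AT4G08410 was called in 0 of these 6 fits. This loss was general: of all 22746 probe sets, 0 were called without compound replicate 1, 2 or 3, and 1 without DMSO replicate 3. The highest unadjusted limma p in the 6 fits was 0.000317 for AT5G06630 and 0.000364 for AT4G08410. The fitted falls moved little there, between -1.70 and -1.42 for AT5G06630 and between -1.29 and -1.07 for AT4G08410, and both genes were called in all 3 fits with the block that left out a numbered pair.

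Within replicate numbers, the compound array was lower than the DMSO array in each of the 3 pairs for both genes. AT5G06630 differed by -1.38 in pair 1, -1.47 in pair 2 and -1.80 in pair 3. AT4G08410 differed by -0.98 in pair 1, -1.16 in pair 2 and -1.43 in pair 3. The fall of AT5G06630 was larger than that of AT4G08410 in every pair, by -0.40, -0.30 and -0.37 on the log2 scale, with a mean of -0.36 ± 0.05 (SD, n = 3). An exact two-sided sign-flip permutation test gave p = 0.25 for this difference, the smallest value that 3 pairs allow, so it could not be called.

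The probe sets of both genes carry the suffix x_at, which the manufacturer gives where some probes also match other sequences. Extensin genes share long repeats and often lie side by side. AT5G06630 is the direct neighbour of AT5G06640 on chromosome 5. AT4G08410 lies on chromosome 4 with 1 protein-coding gene between it and the extensin gene AT4G08400. The values of AT5G06630 and AT4G08410 may therefore include signal from related transcripts, and how much was not tested. A second probe set, assigned to both AT4G08410 and AT4G08400, had values of 3.48, 3.41 and 3.58 in compound replicates 1, 2 and 3, against 3.67, 3.46 and 3.30 in DMSO replicates 1, 2 and 3. These groups overlapped, and all 6 values lay below the lower quartile of the arrays (3.95 to 4.06), where signal cannot be separated from background. Its log2 fold change was 0.01 (95% interval -0.27 to 0.30), so this second reading did not show the fall seen on the x_at probe set.

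Of 23 further extensin and hydroxyproline-rich protein genes on a list drawn up from knowledge of the family, 16 were measured. None of the 16 was called by limma without the block, where 4 had an unadjusted p below 0.05, beside 1220 of all 22746 probe sets. With the block 3 were called lower and 0 higher. Of all probe sets, 1.97% were called lower and 1.83% higher with the block, and 0.224% and 0.119% without it. The 16 genes had a median log2 fold change of -0.01. All compound arrays lay below all DMSO arrays for 5 of the 16, and for 4.37% of all probe sets. The 3 called lower with the block were HRGP1 (AT3G54590, a hydroxyproline-rich glycoprotein gene), AT3G28550 and AT1G23720. HRGP1 had values of 6.40, 6.14 and 5.64 in compound replicates 1, 2 and 3, against 7.37, 7.99 and 8.42 in DMSO replicates 1, 2 and 3. The groups did not overlap, and the size of the difference varied between replicate numbers, at -0.98 in pair 1, -1.85 in pair 2 and -2.78 in pair 3. Its log2 fold change was -1.87 (SE 0.30; limma adjusted p = 0.109, and 0.0180 with the block).

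AT3G28550 had values of 3.70, 4.08 and 3.89 in compound replicates 1, 2 and 3, against 4.53, 5.56 and 5.36 in DMSO replicates 1, 2 and 3. The compound values lie around the lower quartile of the arrays, so the measured log2 fold change of -1.26 (SE 0.27; limma adjusted p = 0.251, and 0.00486 with the block) can understate the fall. AT1G23720 had values of 6.12, 5.71 and 5.99 in compound replicates 1, 2 and 3, against 6.68, 6.91 and 6.83 in DMSO replicates 1, 2 and 3. Its groups did not overlap, and its log2 fold change of -0.86 (SE 0.13; limma adjusted p = 0.0898, and 0.0140 with the block) passed the test with the block alone. The 13 extensin genes not called with the block lay between -0.37 and 0.13. For 6 of the 16 both group means were below 4 on the log2 scale, where a change can go unseen. Among these were AT4G08370, at 3.22 with the compound and 3.13 with DMSO, and AT4G08380, at 3.97 with the compound and 3.90 with DMSO. AT4G08370 and AT4G08380 are direct neighbours on chromosome 4, with 4 protein-coding genes between AT4G08380 and AT4G08410. Each of the 3 genes called lower with the block was called in 2 of the 3 fits with the block that left out a numbered pair.

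Most extensin genes called lower with the block were read by x_at probe sets. All 4 extensin genes read by an x_at probe set (AT5G06630, AT4G08410, HRGP1 and AT1G23720) were called lower with the block. Of the 14 read by other probe sets 1 (AT3G28550) was. Of all 126 x_at probe sets on the array, 6 (4.76%) were called lower with the block and 0 higher, and these 4 extensin genes are among the 6. Of all probe sets with other suffixes, 1.96% were called lower with the block. Without the block 2 of the 126 were called, and these were AT5G06630 and AT4G08410. HRGP1 and the directly neighbouring AT3G54580 differed in the same way: AT3G54580, read by a probe set without that suffix, averaged 4.49 with the compound and 4.58 with DMSO (log2 fold change -0.09, SE 0.15). Whether the x_at probe sets read 1 common transcript was not tested.

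**Figure D2:**
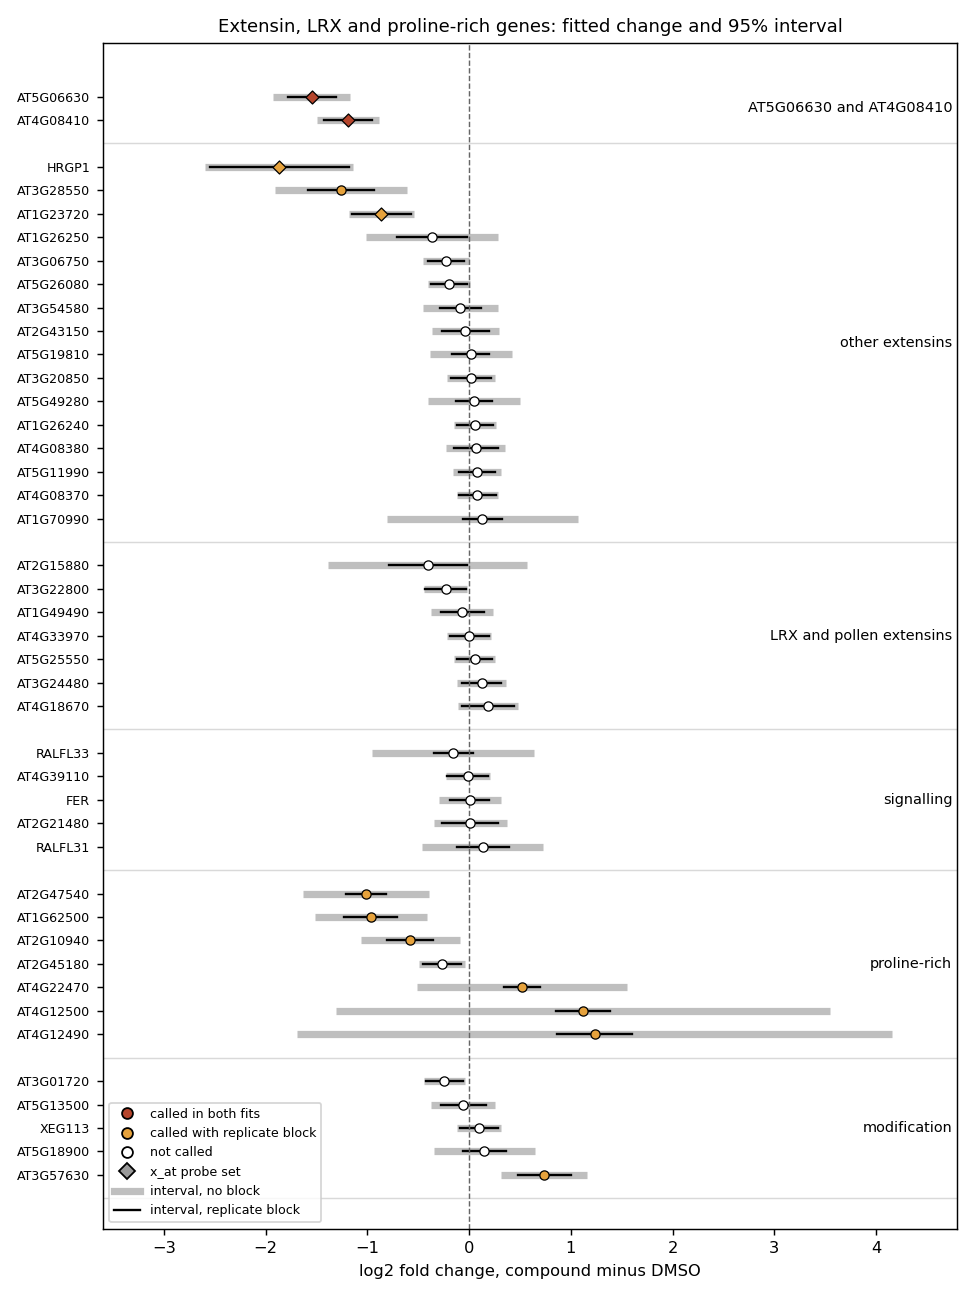
Fitted log2 fold change, compound minus DMSO, of the measured extensin, LRX and related genes in 6 groups, with 95% intervals without (grey) and with (black) the replicate block. Colour marks the calls and diamonds mark x_at probe sets. The diamonds lie between -1.87 and -0.86, and most other extensin, LRX and signalling genes lie near 0.

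The wider LRX family gave no calls with limma. LRX1 and LRX2 were not read, but 7 of 8 other listed genes were, namely those entered as LRX4 to LRX7 and 3 genes of pollen extensins, whose proteins have the same domain plan. Neither fit called any of the 7, and their log2 fold changes lay between -0.41 and 0.18, with a median of -0.00079. Without the block 1 of the 7 had an unadjusted p below 0.05 with limma, beside 1220 of all 22746 probe sets. AT3G22800, entered as LRX6, had values of 5.39, 5.33 and 5.24 in compound replicates 1, 2 and 3, against 5.55, 5.47 and 5.63 in DMSO replicates 1, 2 and 3. Its groups did not overlap, at a log2 fold change of -0.23 (95% interval -0.44 to -0.02; limma adjusted p = 0.849, and 0.240 with the block). AT4G18670, entered as LRX5, was at 0.18 (SE 0.12), and AT3G24480, entered as LRX4, at 0.12 (95% interval -0.12 to 0.37). For 3 of the 7, both group means were below 4.

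The partners of LRX proteins also gave no calls among the 5 of 16 listed genes that were measured, of which 0 had an unadjusted p below 0.05 with limma. For 2 of the 5 both group means were below 4, where a change can go unseen. FER, which encodes the receptor kinase FERONIA that works with LRX proteins and RALF peptides in sensing the wall, had values of 10.52, 10.54 and 10.72 in compound replicates 1, 2 and 3, against 10.55, 10.42 and 10.81 in DMSO replicates 1, 2 and 3. The groups overlapped fully, at a log2 fold change of 0.00 (95% interval -0.30 to 0.31, and -0.19 to 0.19 with the block). The RALF-like peptide genes RALFL31 and RALFL33 were at 0.13 (SE 0.25) and -0.16 (SE 0.33), and neither was called with the block (limma adjusted p = 0.635 and 0.424).

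Of 19 other PRP and proline-rich protein genes, 7 were measured. None was called by limma without the block, while 3 were called lower and 3 higher with it. Over all probe sets, 1.97% were called lower and 1.83% higher with the block, and 0.224% lower and 0.119% higher without it. Without the block 4 of the 7 had an unadjusted p below 0.05 with limma, beside 1220 of all 22746 probe sets. AT2G47540 had values of 5.11, 5.04 and 4.31 in compound replicates 1, 2 and 3, against 6.09, 5.94 and 5.46 in DMSO replicates 1, 2 and 3. Its groups did not overlap, and its log2 fold change was -1.01 (SE 0.26; limma adjusted p = 0.398, and 0.00162 with the block). AT1G62500 had values of 5.83, 5.96 and 5.58 in compound replicates 1, 2 and 3, against 7.02, 7.01 and 6.25 in DMSO replicates 1, 2 and 3. Its groups did not overlap either, and its log2 fold change was -0.97 (SE 0.23; limma adjusted p = 0.317, and 0.00614 with the block). With the replicate number as a random term AT2G47540 and AT1G62500 were both called (limma adjusted p = 0.0138 and 0.0172). Both were also called in all 3 fits with the block that left out a numbered pair. AT2G10940 was at -0.58 (SE 0.20; limma adjusted p = 0.738, and 0.0229 with the block). It was not called with the replicate number as a random term (limma adjusted p = 0.0631), and it was called in 0 of the 3 fits with the block that left out a numbered pair.

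The 3 proline-rich genes called higher with the block had wide gaps between replicate numbers in both groups. AT4G12490 had values of 8.71, 12.16 and 9.07 in compound replicates 1, 2 and 3, against 7.92, 10.93 and 7.40 in DMSO replicates 1, 2 and 3. Replicate 2 was highest in both groups and the groups overlapped, but each compound array was above the DMSO array of its number. Its log2 fold change of 1.23 had an SE of 1.22 without the block and 0.15 with it (limma adjusted p = 0.999 and 0.00858). Replicate 2 was also highest in both groups for AT4G12500 and AT4G22470, with log2 fold changes of 1.12 and 0.52 (limma adjusted p with the block 0.00391 and 0.0137). None of these 3 was called when the replicate number was a random term (limma adjusted p = 0.422, 0.374 and 0.334). That fit used 1 correlation between same-numbered arrays, 0.594, for all probe sets. Of the 3 fits with the block that left out a numbered pair, AT4G12490 and AT4G12500 were each called in 2 and AT4G22470 in 1.

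Of 14 listed genes for the enzymes that hydroxylate and glycosylate extensins 5 were measured. With limma 2 of the 5 had an unadjusted p below 0.05 in the fit lacking the block, beside 1220 of all 22746 probe sets. None of the 5 was called there, and AT3G57630 alone was called higher in the fit with the block, where 1.83% of all probe sets were. It was entered as ExAD, an arabinosyltransferase that extends the sugar chains of extensins. AT3G57630 had values of 6.16, 6.14 and 6.01 in compound replicates 1, 2 and 3, against 5.47, 5.63 and 4.98 in DMSO replicates 1, 2 and 3. All compound arrays were above all DMSO arrays, so it moved opposite to AT5G06630 and AT4G08410, with a log2 fold change of 0.74 (SE 0.18; limma adjusted p = 0.317, and 0.0163 with the block). It was called in 1 of the 3 fits with the block that left out a numbered pair. AT3G01720, entered as the serine galactosyltransferase of extensins, was at -0.24 (SE 0.08; limma adjusted p = 0.716, and 0.176 with the block). XEG113, an arabinosyltransferase gene acting on extensins, was at 0.10 (95% interval -0.12 to 0.32).

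Other root hair genes fell as well. Of 41 further root hair genes on the list 9 were measured. Without the block 8 of the 9 were called lower and with it all 9 were, where 0.224% and 1.97% of all probe sets were called lower. The log2 fold changes of the 9 ran from -3.36 to -1.81, with a median of -2.46. AT1G55700 on this list also had a probe set but was left out, because its symbol there belonged to another locus. Its value is not given here, so the counts do not cover it. The list was written with earlier results of these data known, so its direction is no independent evidence. The fitted falls of AT5G06630 and AT4G08410 were smaller than each of these 9, and that difference was not tested. AT1G34510 and AT3G49960, entered as class III peroxidases, enzymes of the family that can cross-link wall proteins, had log2 fold changes of -3.36 (SE 0.27) and -2.71 (SE 0.21). AT1G30870 and AT4G26010, entered as peroxidases of the same class, were at -2.07 (SE 0.17) and -2.70 (SE 0.26). XTH26, a xyloglucan endotransglucosylase gene, was at -2.67 (SE 0.30), and its compound mean of 3.92 lies around the lower quartile of the arrays, so this value can understate the fall. The expansin genes EXPA18 and EXPA7, whose proteins loosen the wall, were at -1.81 (SE 0.20) and -2.10 (SE 0.26). Each of the 9 genes kept its direction without any 1 array, and each was called in 1 or 2 of those 6 fits. GH9C1, an endoglucanase gene, was at -1.91 (SE 0.25; limma adjusted p = 0.0551, and 0.00276 with the block). Of the 9 genes listed for the non-hair epidermis and hair patterning, only TRY was measured, at 3.87 with the compound and 3.90 with DMSO, near background. PYK10 of other root tissues, the 1 measured of 17, was at -0.10 (95% interval -0.39 to 0.20), and LHCB4.1 at -0.03 (95% interval -0.24 to 0.19). The other light-harvesting genes looked up with it were LHCB4.2, at -0.23 (95% interval -0.52 to 0.06) and lower with the compound in all 3 pairs, and LHCB4.3, at -0.09 (95% interval -0.65 to 0.47). Neither was called with the block (limma adjusted p = 0.174 and 0.741).

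**Figure D3:**
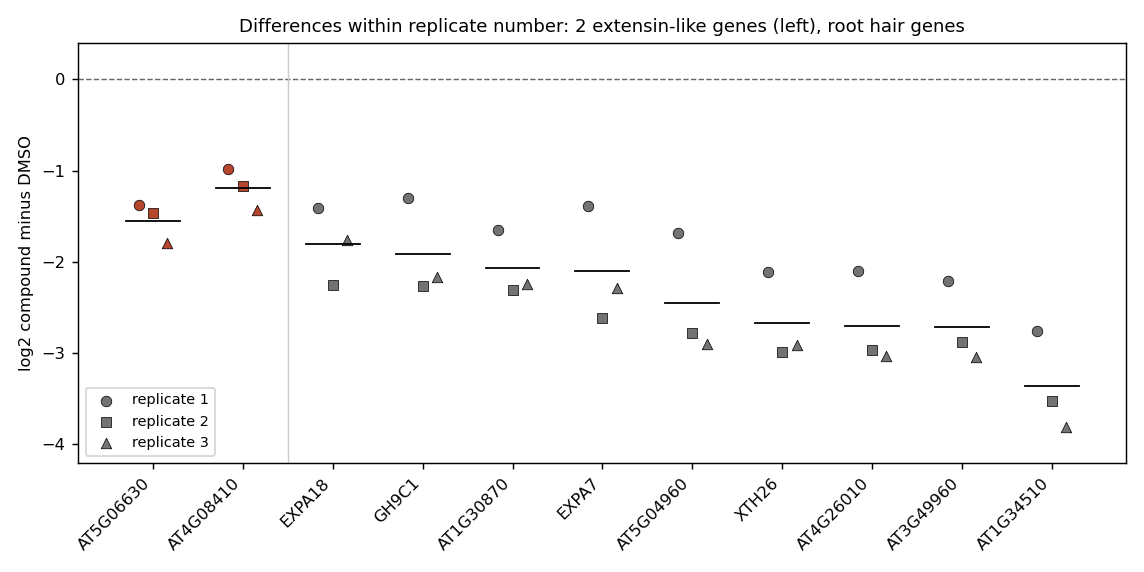
Log2 difference, compound minus DMSO, within each replicate number (symbols) for AT5G06630 and AT4G08410 (red) and for 9 other root hair genes (grey). Black lines give the fitted log2 fold change. All differences are below 0, and in every gene shown pair 1 has the smallest fall.

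DMSO replicate 1 was the lowest DMSO array for all 9 root hair genes, by 0.57 to 1.16 on the log2 scale below the mean of the other DMSO arrays. It was also the lowest for AT5G06630, by 0.45, and for AT4G08410, by 0.02. Over all probe sets this array was the lowest of its group in 29.5%. What the arrays of a number shared is not given by the labels, and its part in the falls was not tested.

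The pattern of AT5G06630 and AT4G08410 over the 6 arrays was compared with that of 13511 other single-gene probe sets. The 6 with the highest correlation to their mean standardised profile were AT1G34510 (r = 0.994), AT3G49960 (0.994), AT2G45750 (0.993), AT1G30870 (0.989), AT1G30750 (0.988) and AT4G26010 (0.988). AT1G34510, AT3G49960, AT1G30870 and AT4G26010 are on the root hair list as class III peroxidases, and AT2G45750 and AT1G30750 are on no list. AT2G45750 had values of 5.15, 5.14 and 4.91 in compound replicates 1, 2 and 3, against 5.94, 6.16 and 6.04 in DMSO replicates 1, 2 and 3, a log2 fold change of -0.98 (SE 0.11, limma adjusted p = 0.0294). AT5G06630 and AT4G08410 correlated with each other at 0.947. These correlations describe 6 arrays that part by treatment, and 137 of the 13511 probe sets reached at least 0.9. Among the other extensins HRGP1 stood at 0.970, AT1G23720 at 0.945 and AT3G28550 at 0.918.

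**Figure D4:**
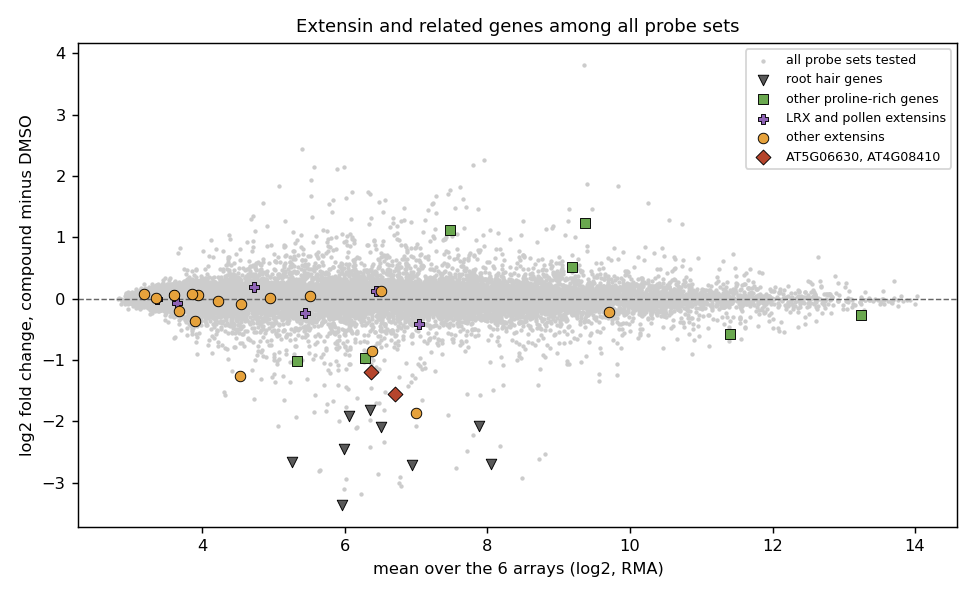
Log2 fold change, compound minus DMSO, against the mean over the 6 arrays (log2, RMA) for all 22746 probe sets (grey), with AT5G06630, AT4G08410 and related genes marked. AT5G06630 and AT4G08410 lie at -1.55 and -1.19, above the root hair genes, while most other extensin, LRX and pollen extensin genes lie near 0 and many of them near the low end of the means.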

How the data were processed

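Each probe set had 1 value per array on the log2 scale, as the authors deposited it. The submitters' processing notes name RMA, which corrects background and gives the probe intensities of all arrays the same quantiles before they are summarised. A shift of all transcripts would therefore not show. The table held 22810 probe sets, and 64 controls were left out. Genes were named through the platform annotation and the NCBI gene table of TAIR10.1. Of 22746 probe sets 8730 were unnamed here, and no sequence or genome was used.

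The comparison of compound with DMSO used limma 3.58.1 (R 4.3.3), with treatment as the only term and Benjamini-Hochberg adjustment over all 22746 probe sets, called at an adjusted p below 0.05. A block for replicate number was the alternative. The code was tested on simulated data for the fit without the block only, and no effect of replicate number was simulated. Deviations from the group means of same-numbered arrays correlated at 0.727, 0.728 and 0.743 over all probe sets, each above the limit of 0.1, so the titles' numbers pair the samples. The block's value is printed where it changes a call. SEs and intervals come from the fit without the block, which ignores this pairing, unless the block is named. The labels do not say that the replicates came from separate sowings, so p-values measure the spread between these arrays.

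The genes and the 9 lists (159 entries, 51 measured) were chosen with earlier results of these data known. A further entry is not reported here. A measured entry was dropped where its symbol belonged to another locus. The shoot list had no measured entry, and LHCB4.1, LHCB4.2 and LHCB4.3 were added after the data were seen. Named were all members, up to 6 called genes of each list or otherwise its 2 with the smallest p, and 6 by likeness. HRGP1's neighbour, AT3G28550, FER, XEG113, AT3G24480, EXPA7, GH9C1 and the other genes outside it were chosen after seeing their values. The number of arrays limits the precision.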

Additional observations from a re-analysis of the deposited data

How the results depend on the processing

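AT5G06630 and AT4G08410 kept their direction in all 14 alternatives, between -1.70 and -1.42 and between -1.30 and -1.07, and were both called in the 8 that left out no single array. Leaving out 1 array gave 0 to 1 called members, 1 without DMSO replicate 1 and 0 otherwise. The number of probe sets called was 865 with the replicate block and 491 with it as a random term, against 78 without it, and ranged from 0 to 76 where 1 array was left out. It was 516, 743 and 205 with the block and without both arrays of replicate 1, 2 and 3. Where 0 probe sets were called, without compound replicate 1, 2 or 3, limma gave 1022, 1049 and 1047 at an unadjusted p below 0.05. These fits have fewer samples, and those without a pair have 1 residual degree of freedom. Centring each array on its median gave 79 calls, keeping means of at least 4 gave 90, and an intensity trend with robust settings gave 94. The replicate block changed no call of the 2 genes. Values below about 4 were taken as near background, and no detection limit was measured. This limits what the shared probe set and the low extensin, LRX, pollen extensin and signalling genes, and the compound values of XTH26 and AT3G28550, can show.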
